A study of Mus musculus with 2 samples.

Results

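Repopulating brain cells with the most transcripts of the DNA replication machinery were described in a library of single cells taken 5 days after microglial depletion. They are 110 of the 553 barcodes retained in the repopulation library, and of 1162 retained in the whole series. Barcodes of that library were kept if they held 500 genes or more and less than 10% of their UMIs (unique molecular identifiers, 1 to each RNA molecule caught) came from mt- genes. The 20% with the highest summed share of 12 genes of G2 and mitosis were set aside (Mki67, Top2a, Ccnb1, Ccnb2, Cenpf, Cenpe, Hmmr, Plk1, Nusap1, Cdc20, Ube2c and Birc5). Of the rest, the 25% with the highest summed share of 12 S phase genes were taken (Mcm2, Mcm3, Mcm4, Mcm5, Mcm6, Mcm7, Pcna, Rrm2, Uhrf1, Tipin, Gins2 and Tyms). These 110 are called S-high here. The remaining 443 are made up of the 111 set aside, called G2/M-high, and 332 called low-cycle.

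The Repop D5 library came from 6 pooled adult C57BL/6J mice given PLX5622 for 14 days and returned to control diet for 5 days. PLX5622 blocks Csf1r, a receptor that microglia need to survive. The CD library came from 4 pooled mice of the same strain on control diet for 19 days. In both, cells carrying CD11b and CD45 on their surface were sorted from dissociated brain, a gate that also admits myeloid cells other than microglia. Each group is 1 library, so there is no replicate and no test: ratios of CPM (counts per 1000000 UMIs), summed over barcodes, are given with exact conditional binomial 95% intervals, and these and all other intervals cover counting error only.

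S phase is the part of the cell cycle in which DNA is copied. Before it, origins of replication are licensed by loading the MCM helicase with the help of Cdc6 and Cdt1, and cyclin E with Cdk2 then promotes origin firing. At the fork, polymerases held by the Pcna clamp copy DNA from deoxynucleotides that ribonucleotide reductase (Rrm1 and Rrm2) supplies. Much of this gene set is switched on by E2F factors at the end of G1. Microglia that survive Csf1r inhibition are known to divide and refill the brain within days after the inhibitor is withdrawn.

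E2F factors bind elements that begin with a run of T bases before a CG-rich core, and the promoters of the genes described here were searched for TTTCGCGC, TTTGGCGC, TTTCCCGC and TTTGCCGC on both strands. The following 4 stretches of 80 bases from RefSeq (GRCm38.p6), shown to let the matched letters be seen in genes that chose the barcodes (Mcm6, Mcm5) and in genes that did not (Topbp1, Cdk2), lie within the 250 bases before the RefSeq starts. Capitals mark every match, and matches on opposite strands can overlap, as they do in Mcm6 and Mcm5.
Mcm6 (chr1:128359741-128359820, minus strand): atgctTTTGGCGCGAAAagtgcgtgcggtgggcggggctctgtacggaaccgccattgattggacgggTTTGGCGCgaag
Mcm5 (chr8:75109322-75109401, plus strand): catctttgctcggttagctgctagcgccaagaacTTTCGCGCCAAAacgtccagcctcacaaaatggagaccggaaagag
Topbp1 (chr9:103305135-103305214, plus strand): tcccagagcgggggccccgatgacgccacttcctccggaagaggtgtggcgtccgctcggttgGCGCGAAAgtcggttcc
Cdk2 (chr10:128705148-128705227, minus strand): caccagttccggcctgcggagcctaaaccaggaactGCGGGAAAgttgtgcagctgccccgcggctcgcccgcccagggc

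Mcm6 had 3 such matches in this stretch, Mcm5 had 2, and Topbp1 and Cdk2 had 1 each. In windows from 250 bases before to 50 bases after each start, an E2F match was held by 5 of the 9 S rule genes with a promoter in the table (55.6%) and by 25 of 87 replication genes outside the rule (28.7%). Of the replication genes that reached 20 CPM in the retained Repop D5 barcodes, 10 of 50 with a promoter held one (20.0%). The share was 8.33% among G2/M genes (4 of 48), 5.26% among the genes at 20 CPM outside the rule (206 of 3920) and 2.60% among all 27025 genes of the table. The CHR element (TTTGAA or TTCGAA), known from late cell cycle promoters, ran the other way. It was held by 2 of the 9 S rule genes, by 18 of 87 replication genes (20.7%) and by 38 of 48 G2/M genes (79.2%), beside 16.5% of the genes at 20 CPM and 21.7% of all genes. The CCAAT box stood in 8 of the 9 S rule genes, in 49 of 87 replication genes (56.3%) and in 38 of 48 G2/M genes (79.2%), beside 42.9% of the genes at 20 CPM and 41.1% of all genes. The 3 motifs were searched separately, and a match is a description of the letters only.

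The S-high barcodes held 2484986 UMIs, the G2/M-high 2785157, the low-cycle 5767778 and the CD library 6055886. Median UMIs per barcode were 20442 in S-high, 21972 in G2/M-high, 14098 in low-cycle and 5982 in CD barcodes, and median genes were 4143, 4416, 3298 and 2147 in the same order. The median share of mt- UMIs was 4.81%, 4.55%, 4.87% and 2.00%. The part of these differences of depth in the results below was not tested, and values at equal depth are given beside those that rest on shares of barcodes. The libraries shared 1 barcode sequence, which was not an S-high one, and Scrublet, a doublet caller, marked 2 of 110 S-high and 6 of 443 remaining barcodes.

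The summed share of the S rule genes, which chose the barcodes and is given in CPM of each barcode, was lowest at 968, had its median at 1590 and was highest at 3449 CPM in S-high barcodes. The first values inside the limit were 968, 991 and 993, and the first outside it were 966, 948 and 937, so the class is a range on a continuous scale. Within 10% of the limit lay 12 S-high and 19 low-cycle barcodes. Median shares were 750 in G2/M-high, 355 in low-cycle and 117 CPM in CD barcodes. Of the 111 G2/M-high barcodes, 34 (30.6%, exact Clopper-Pearson interval 22.2 to 40.1%) also reached the limit, so the S-high class leaves out barcodes that carry both programmes.

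**Figure D1:**
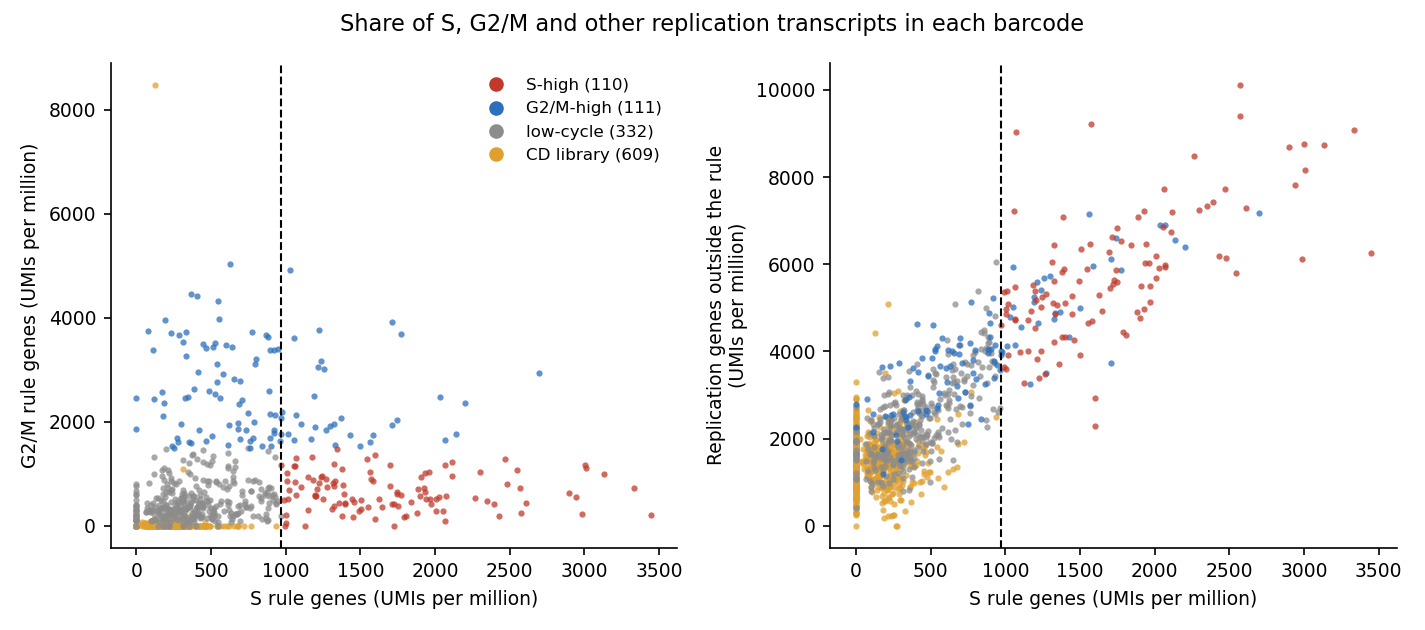
Each point is 1 barcode of the S-high, G2/M-high, low-cycle or CD set. The horizontal axes give the summed share of the 12 S rule genes, and the vertical axes that of the 12 G2/M rule genes (left) or of 102 replication genes outside the rule (right), all in CPM of each barcode. The dashed line is the lowest S-high value of 968, and no CD barcode reaches it.

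No CD barcode reached 968 CPM (0 of 609, which allows a share of up to 0.493%), against 144 of 553 retained Repop D5 barcodes (26.0%, interval 22.4 to 29.9%) when the G2/M-high ones are counted too. After every barcode was thinned to 3000 UMIs, 3 rule gene UMIs or more were held by 93 of 110 S-high, 44 of 111 G2/M-high, 44 of 332 low-cycle and 6 of 599 CD barcodes. The shares were 84.5% in S-high, 39.6% in G2/M-high, 13.3% in low-cycle (exact interval 9.80 to 17.4%) and 1.00% in CD barcodes (0.368 to 2.17%). A Repop D5 cluster led by neutrophil genes and by the monocyte genes Plac8, Ifitm6 and Chil3, called neutrophil-like here, reached that number in 4 of 27 barcodes (14.8%, 4.19 to 33.7%, and 2 to 7 barcodes over 20 draws). It held 2 S-high barcodes, and 22.2% of its barcodes had a UMI of the cycle gene Top2a at this depth against 10.5% of low-cycle ones, so it is no clean background. Its barcodes also carried microglial genes. At this depth Csf1r was found in 96.3%, Cx3cr1 in 81.5%, Tmem119 in 74.1% and P2ry12 in 55.6% of them. The shares were 96.7%, 93.7%, 85.8% and 72.6% of low-cycle barcodes. The name thus stands for the leading genes and not for a cell type.

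All 12 rule genes were higher in S-high barcodes, from Mcm6 with a ratio of 3.64 to Tyms, the thymidylate synthase, with 2.07 over the remaining barcodes. These ratios are fixed by the choice and are description only. Mcm6, a subunit of the replicative helicase (ENSMUSG00000026355, chr1:128331590-128359664 in GENCODE M21, GRCm38), stood at 166 CPM in S-high barcodes, 52.4 in G2/M-high, 42.3 in low-cycle and 7.76 in CD. Pcna, the sliding clamp (chr2:132249162-132253314), stood at 315, 161, 88.4 and 56.1 CPM in the same order. Rrm2, the small subunit of ribonucleotide reductase (chr12:24708241-24714146), stood at 171 CPM in S-high, 118 in G2/M-high and 29.5 in low-cycle barcodes and had 0 UMIs in CD. Rrm2 and Tyms were thus nearer to their S-high level in G2/M-high barcodes than the helicase genes were. To take out the counting noise that chose a barcode, UMIs were split at random, barcodes were chosen on one part and the rule genes measured on the other. They came to 1599 CPM in barcodes so chosen and 600 in the rest, a ratio of 2.66 (2.51 to 2.83), beside 2.96 in the choosing part.

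The label of S phase was then read on 102 replication genes that the rule did not use, of which 57 reached 20 CPM over all retained Repop D5 barcodes. Summed over all 102, they stood at 5688 CPM in S-high, 4161 in G2/M-high, 2615 in low-cycle and 1528 in CD barcodes. The ratio was 1.82 (1.79 to 1.86) over all remaining barcodes, 1.37 (1.33 to 1.40) over G2/M-high and 2.18 (2.13 to 2.23) over low-cycle. Of the 57 measured genes, 46 were at least 1.5-fold higher than in the remaining barcodes and 0 at least 1.5-fold lower, with a median ratio of 1.82. Some, such as Cdt1 and Prim1 at 14.5 and 15.8 CPM in the remaining barcodes, reached 20 CPM only through their S-high level. The count is therefore description, while the sum over all 102 uses no such minimum. Over all 5059 genes tested outside the rule, 3.78% were higher by that fold and 2.61% lower, with a median ratio of 1.01. In single barcodes the summed share had its median at 5530 CPM in S-high (2284 to 10110), 3845 in G2/M-high (1180 to 7175), 2228 in low-cycle (412 to 6062) and 1521 in CD (0 to 5082), so the ranges overlap. At 3000 UMIs per barcode the medians were 16.5, 11.0, 7.00 and 4.00 UMIs, and 7.50 in neutrophil-like barcodes. The data therefore follow the label as far as genes of replication go, and DNA content was not measured.

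**Figure D2:**
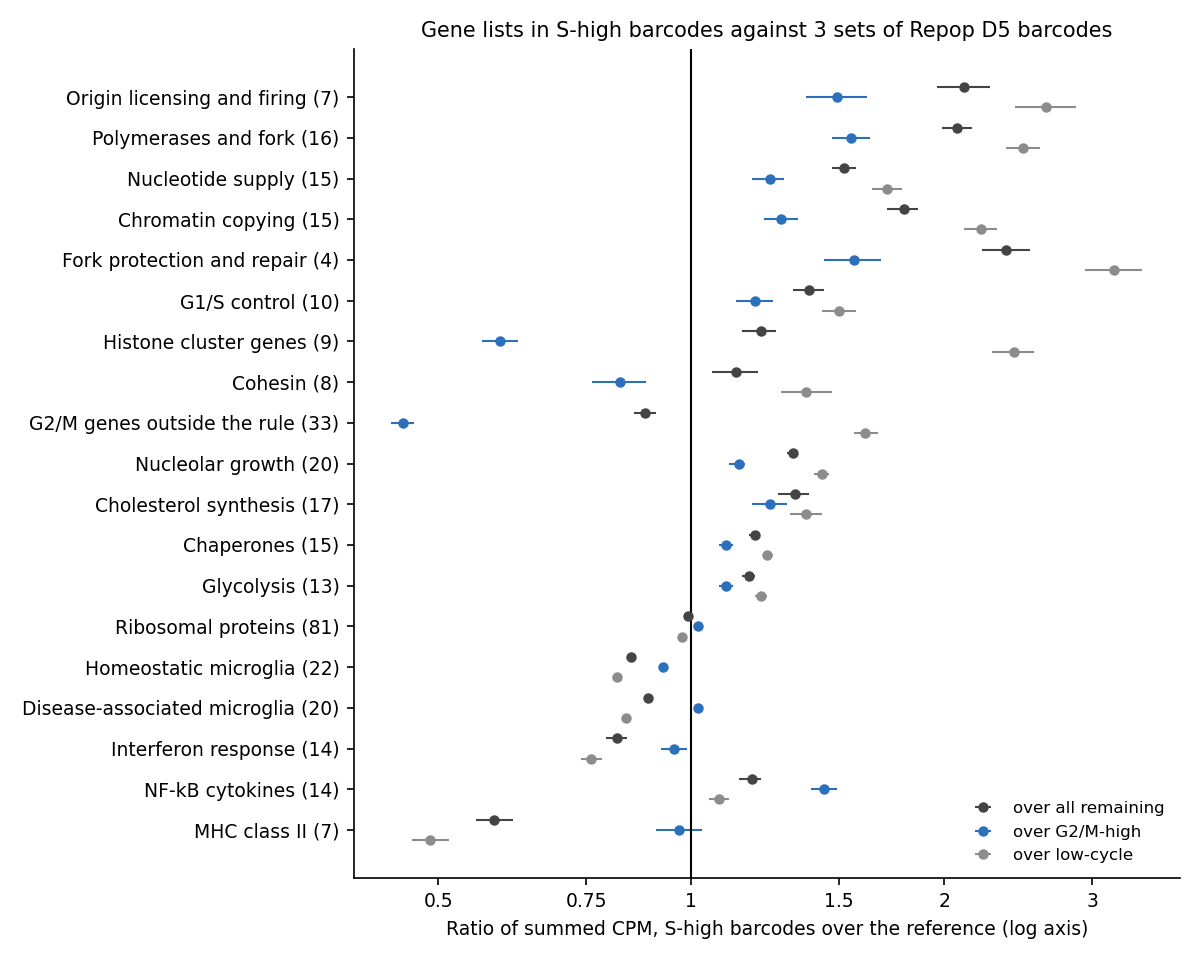
Ratios of summed CPM of each gene list in S-high barcodes over all remaining, G2/M-high and low-cycle barcodes, on a log axis. Bars are 95% intervals of counting error, and numbers in brackets are the genes at 20 CPM. Replication lists lie above 1 against all 3 sets, while histone cluster and G2/M genes lie below 1 against G2/M-high and above 1 against low-cycle.

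Among regulators of the G1 to S step, both cyclin E genes stood highest. Ccne2 (ENSMUSG00000028212, chr4:11191351-11204779) had 55.9 CPM in S-high barcodes, 12.9 in G2/M-high, 9.02 in low-cycle and 0.165 in CD. Its ratio over the remaining barcodes, 5.44 (4.13 to 7.18), was the highest of the 5059 genes tested. Ccne2 reached the 20 CPM minimum only through its S-high level, at 20.6 CPM over all retained Repop D5 barcodes and 10.3 in the remaining ones. The rank is therefore description only. Ccne1 (chr7:38097984-38107534) had 42.7, 10.1 and 7.80 CPM in the 3 Repop D5 sets and 0 UMIs in CD, with a ratio of 5.00 (3.67 to 6.83), although its mean over all barcodes was under the 20 CPM minimum. At least 1 UMI of Ccne2 was found in 60.9% of S-high and 13.5% of remaining barcodes. At 3000 UMIs these shares were 15.5% in S-high, 3.60% in G2/M-high and 1.81% in low-cycle, with 1 of 27 neutrophil-like (3.70%) and 0 of 599 CD barcodes. The neutrophil-like share rests on a single barcode (interval 0.0937 to 19.0%) and sets no background for the low-cycle share.

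Other regulators differed less. E2f1, an activator of S phase genes, stood at 51.9 CPM in S-high, 23.3 in G2/M-high, 21.5 in low-cycle and 3.30 in CD barcodes. Cyclin D1 (Ccnd1), which acts earlier in G1, had a ratio of 1.12 (1.00 to 1.26), and the inhibitor Cdkn1a, known as p21, 1.14 (1.02 to 1.28). Cdkn2c and Cdkn2d, inhibitors of Cdk4 and Cdk6, had 55.9 and 35.4 CPM in S-high against 114 and 94.8 in G2/M-high and 28.4 and 25.7 in low-cycle barcodes. Of the 10 G1/S genes measured, 4 were 1.5-fold higher than in the remaining barcodes and 0 lower, beside 3.78% and 2.61% of all genes tested.

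Of the 7 origin genes measured, 6 were 1.5-fold higher than in the remaining barcodes, beside 3.78% of all genes tested. The loading factor Cdt1 stood at 47.9 CPM in S-high, 16.5 in G2/M-high and 13.5 in low-cycle barcodes, a ratio of 3.30 (2.55 to 4.28) over all remaining. Cdc6 stood at 21.3, 4.31 and 5.72 CPM, with a ratio of 4.05 (2.67 to 6.17), also under the minimum over all barcodes. Orc6, of the origin recognition complex, had a ratio of 3.01 (2.45 to 3.69). Dbf4, the activating subunit of the Cdc7 kinase, was the exception, at 22.5 CPM in S-high, 44.9 in G2/M-high and 14.0 in low-cycle barcodes. Dtl, part of the ligase that destroys Cdt1 once replication starts, stood at 46.3, 17.6 and 12.7 CPM, with 0 UMIs in CD. Fbxo5, an inhibitor of the anaphase-promoting complex, stood at 59.6, 43.1 and 11.8 CPM.

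At the fork, 15 of 16 measured genes were 1.5-fold higher than in the remaining barcodes, beside 3.78% of all genes tested. Rpa2, of the complex that coats single-stranded DNA, had a ratio of 3.06 (2.53 to 3.70). The ligase Lig1 and the flap nuclease Fen1, which finish lagging strand fragments, both had 2.72, with intervals of 2.37 to 3.12 and 2.29 to 3.23. The primase subunit Prim1 had 2.68 and the clamp loader subunit Rfc3 2.66. The one below the fold was the nuclease and helicase Dna2, at 1.32 (1.08 to 1.60). Of 24 genes of fork protection and repair, 4 reached 20 CPM (Wdr76, Topbp1, Rad51ap1 and Usp1), with ratios of 2.03 to 2.75.

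**Figure D3:**
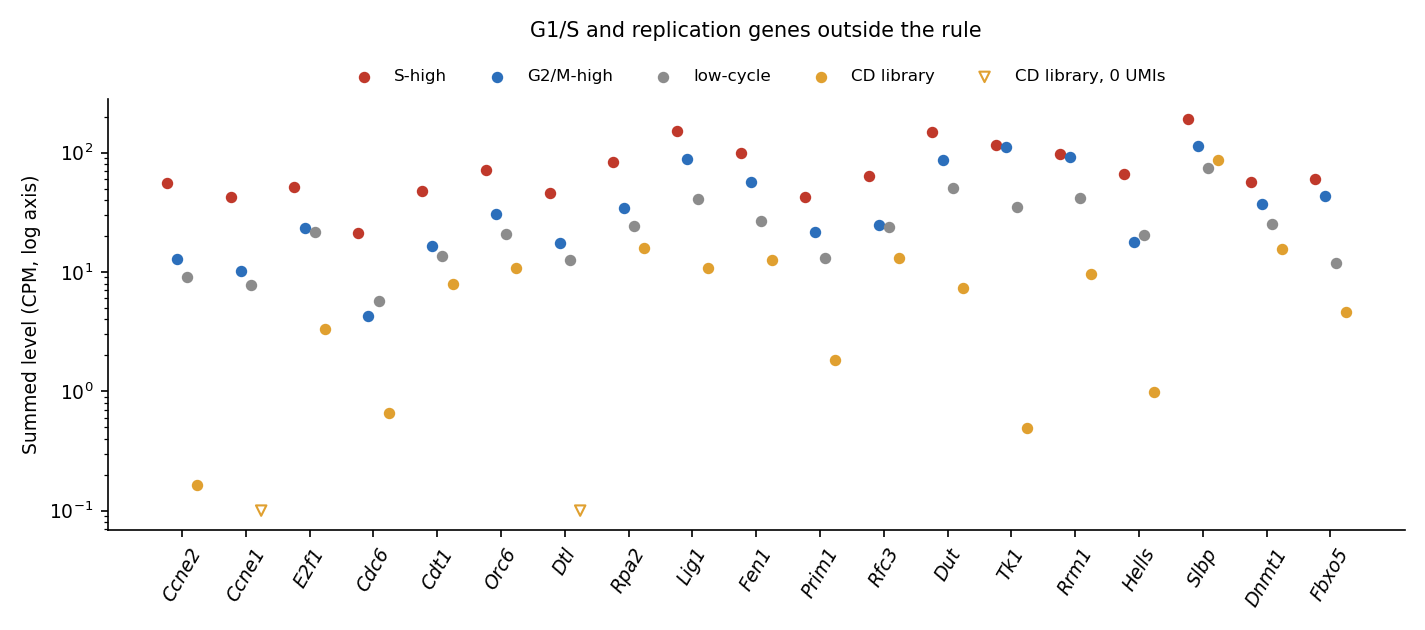
Summed levels of named genes outside the rule in S-high, G2/M-high and low-cycle barcodes and the CD library, in CPM on a log axis. Open triangles, drawn at 0.1, mark genes with 0 UMIs in CD. Ccne2, Ccne1, Cdc6 and Cdt1 stand apart in S-high barcodes, while Tk1 and Rrm1 are about as high in G2/M-high barcodes.

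Nucleotide supply was higher by less, with a summed ratio of 1.52 (1.47 to 1.57) over the remaining barcodes. Of 15 measured genes, 11 were past 1.5-fold, beside 3.78% of all genes tested. Dut, which removes dUTP, had 2.37 (2.07 to 2.72). Tk1, the thymidine kinase of cycling cells, stood at 117 CPM in S-high, 112 in G2/M-high and 0.495 in CD barcodes, with a ratio of 3.33 over low-cycle. Rrm1 stood at 96.6 CPM in S-high, 91.9 in G2/M-high, 41.6 in low-cycle and 9.58 in CD barcodes. Both thus separated cycling from low-cycle barcodes but not S-high from G2/M-high, with ratios over G2/M-high of 1.05 each. Samhd1, which breaks deoxynucleotides down, stood at 47.9 CPM in S-high against 70.6 CPM in the remaining barcodes, a ratio of 0.678 (0.552 to 0.827). Its level was 53.1 CPM in G2/M-high and 79.1 in low-cycle barcodes, and its ratio over G2/M-high was 0.901 (0.702 to 1.15).

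Genes that copy chromatin had a summed ratio of 1.79 (1.71 to 1.86), and 10 of 15 were 1.5-fold higher, beside 3.78% of all genes tested. Hells, a helicase needed for DNA methylation (chr19:38930915-38971051), had 65.6 CPM in S-high, 18.0 in G2/M-high, 20.6 in low-cycle and 0.991 in CD barcodes, a ratio of 3.32 (2.66 to 4.14). Dnmt1, the maintenance DNA methyltransferase, had 1.95 (1.57 to 2.41), and Slbp, which binds histone mRNA, 2.20 (1.96 to 2.47). The Polycomb subunit Suz12 and the histone chaperone Rbbp4 both had 1.32.

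Histone cluster genes, many of whose mRNAs are made for replication, did not follow the same order. Their sum stood at 996 CPM in S-high, 1682 in G2/M-high, 412 in low-cycle and 383 in CD barcodes. The ratio was 2.42 (2.28 to 2.56) over low-cycle and 0.592 (0.564 to 0.622) over G2/M-high barcodes. Of 9 measured genes, 3 were 1.5-fold higher and 1 lower than in all remaining, beside 3.78% and 2.61% of all genes tested. The sum mixes genes of unlike direction. Hist3h2a, the 1 lower gene, stood at 13.3 CPM in S-high and 112 in CD barcodes. Hist1h2bc stood at 55.9 and 93.3 CPM, and Hist1h1c at 33.4 and 47.2 CPM. The sum is thus no measure of replication histone mRNA alone, in CD barcodes least of all. Hist1h2ap, an H2A gene, went the other way, at 348 CPM in S-high, 543 in G2/M-high, 55.0 in low-cycle and 22.0 in CD barcodes. Its reads may be shared with near-identical H2A copies, and since most replication histone mRNA carries no poly(A) tail, which the library chemistry captures, its level is uncertain.

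Against G2/M-high barcodes, 2.27% of the 5059 genes were 1.5-fold higher in S-high barcodes and 3.46% lower. Of the 57 replication genes, 21 were higher and 1 was lower, with a median ratio of 1.36 beside 0.992 over all genes tested. Genes of G2 and mitosis outside the rule stood at 2245 CPM in S-high, 4945 in G2/M-high, 1391 in low-cycle and 378 in CD barcodes, and 29 of 33 were 1.5-fold lower than in G2/M-high. Since both sets were chosen by cycle genes, these counts are description. Over all remaining barcodes their summed ratio was 0.881 (0.855 to 0.907), and it was 1.10 when 10% rather than 20% of barcodes were set aside for G2/M genes. Cenpa, the histone of the centromere, stood at 54.7 CPM in S-high, 250 in G2/M-high and 82.7 in low-cycle barcodes. Cdk1, the mitotic kinase, stood at 130, 242 and 48.2 CPM, and cyclin A2 (Ccna2), which acts in S phase and G2, at 63.2, 158 and 36.6 CPM. Cdk1 was thus intermediate, while Cenpa was lowest in S-high barcodes.

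Against low-cycle barcodes, 7.20% of genes were higher in S-high barcodes and 2.91% lower. Of the replication genes, 52 of 57 were higher and 1, Samhd1, was lower. G2/M genes outside the rule were higher in 20 of 33 and lower in 1, so the S-high set also held more mitotic transcripts than the low-cycle set. The topoisomerase Top2a, a G2/M rule gene, stood at 153 CPM in S-high, 355 in G2/M-high and 50.6 in low-cycle barcodes.

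The S-high barcodes differed among themselves in how far G2/M transcripts had accumulated. They were ordered by their share of the G2/M rule genes into 3 sets of 37, 37 and 36 barcodes, with median UMIs of 17254, 19190 and 22722. Histone cluster genes stood at 510 CPM in the lowest set, 1050 in the middle and 1359 in the highest, a ratio of highest to lowest of 2.67 (2.37 to 3.00). Hist1h2ap alone stood at 111, 339 and 560 CPM. Ccna2 stood at 29.1, 46.2 and 108 CPM, and Fbxo5 at 33.0, 54.6 and 87.0 CPM. The summed level of the other replication genes hardly differed, at 5436, 5982 and 5623 CPM.

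Among genes of the helicase, which belong to the rule, 3 were lower in the highest set with intervals under 1, while the other 4 had intervals that reach past 1. The barcodes were chosen on the sum of the S rule genes, with medians of 1712, 1701 and 1463 CPM in the 3 sets. Ratios of rule genes between these sets, that of Rrm2 among them, are therefore description only. Mcm2 stood at 120 CPM in the lowest set, 103 in the middle and 64.4 in the highest, a ratio of 0.536 (0.378 to 0.754). Mcm3 had 0.672 (0.519 to 0.869) and Gins2, of the helicase activating complex, 0.613 (0.414 to 0.901). The ratio was 0.800 (0.616 to 1.04) for Mcm5, 0.835 (0.533 to 1.31) for Mcm4, 0.882 (0.687 to 1.13) for Mcm6 and 1.00 (0.738 to 1.36) for Mcm7. Outside the helicase, intervals also reached past 1 for Cdc6, at 0.521 (0.248 to 1.06), Dtl, at 0.626 (0.377 to 1.03), and Hells, at 0.700 (0.461 to 1.06). Rrm2 stood at 135, 166 and 206 CPM, a ratio of 1.53 (1.19 to 1.96), and Rad21, a cohesin subunit, at 59.5, 73.5 and 112 CPM. Ccne1 had 1.95 (1.15 to 3.44), and Ccne2 1.14 (0.725 to 1.81). Cdkn1a stood at 127, 164 and 192 CPM.

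**Figure D4:**
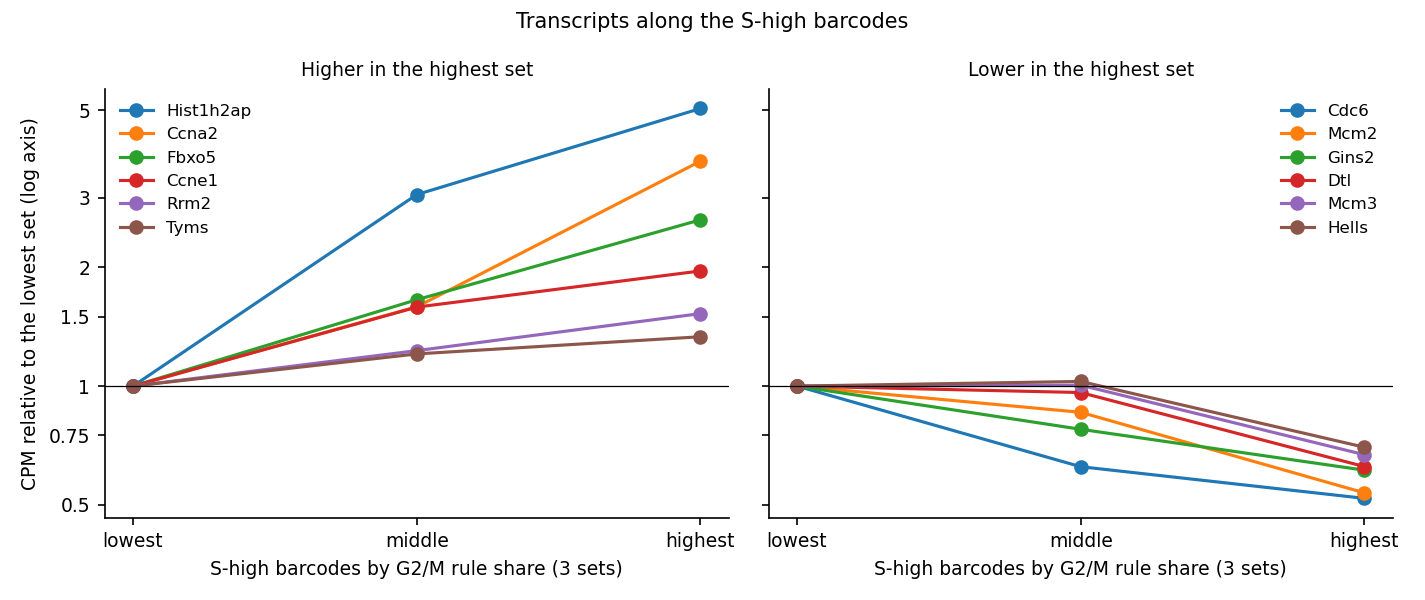
CPM in 3 sets of S-high barcodes, ordered by their share of the G2/M rule genes and drawn relative to the lowest set on a log axis. The left panel shows genes higher in the highest set, led by Hist1h2ap at 5.05 times the lowest set, and the right panel genes lower there, such as Mcm2 at 0.536 times. Rrm2, Tyms, Mcm2, Mcm3 and Gins2 are S rule genes, on whose sum the barcodes were chosen.

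Growth genes stood moderately higher. Of 20 nucleolar and ribosome assembly genes, 6 were 1.5-fold higher than in the remaining barcodes and 0 lower. Over all genes tested, 3.78% were higher and 2.61% lower. The nucleolar list had a summed ratio of 1.32 (1.30 to 1.34). It was 1.43 (1.40 to 1.46) over low-cycle but 1.14 (1.11 to 1.16) over G2/M-high barcodes. Against G2/M-high, 1 of the 20 genes was 1.5-fold higher, beside 2.27% of all genes tested. Over all remaining barcodes, Nolc1, a nucleolar phosphoprotein, had 1.69 (1.35 to 2.11) and Nop58, of the complex that methylates ribosomal RNA, 1.67 (1.42 to 1.96), while Myc had 1.01 (0.777 to 1.31). Over G2/M-high, Nolc1 had 1.51 (1.15 to 2.01) and Nop58 1.16 (0.957 to 1.40). The ratios that follow are again over all remaining barcodes. Ribosomal protein genes were level, at a ratio of 0.990. The chaperonin Hspd1 had 1.63 (1.49 to 1.77). Of 17 cholesterol synthesis genes, 2 passed 1.5-fold, among them Fdps, which makes farnesyl diphosphate, at 1.59 (1.46 to 1.73). Lactate dehydrogenase A (Ldha) had 1.44 (1.36 to 1.52).

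The S-high barcodes carried microglial genes at much the level of their neighbours. All 10 microglial markers were found, summing to 10695 CPM in S-high, 11470 in G2/M-high, 12081 in low-cycle and 27125 in CD barcodes. Homeostatic genes, those of resting microglia, had a summed ratio of 0.848 (0.840 to 0.856). Beside 2.61% of all genes tested, 2 of 22 homeostatic genes were 1.5-fold lower, among them the receptor Gpr34 at 0.660. Tmem119 stood at 805 CPM in S-high against 827 CPM in the remaining barcodes, and P2ry12, a purine receptor, at 406 against 521 CPM. Csf1r, the target of PLX5622, stood at 1287 CPM in S-high against 1410 CPM in the remaining barcodes and 3259 CPM in CD. Nestin (Nes), an intermediate filament of progenitor cells, stood at 76.9 CPM in S-high against 66.1 CPM in the remaining barcodes, a ratio of 1.16 (0.982 to 1.37).

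Outside the rule genes, which were left out of the ranking, the lowest ratios belonged largely to genes of other myeloid cells. Of the 15 lowest, Ly6c2 and Plac8 are monocyte markers and S100a8, S100a9, Ngp, Camp, Lcn2 and Ltf are neutrophil markers. H2-Aa, H2-Eb1 and Cd74 encode MHC class II and its chaperone, and Cenpa, at 0.399, was the 1 mitotic gene ranked. The G2/M rule genes Cdc20 (0.380), Ccnb1 (0.395) and Ube2c (0.398) had lower ratios than Cenpa but were not ranked. Plac8 stood at 12.9 CPM in S-high, 12.9 in G2/M-high and 126 in low-cycle barcodes, and Cd74 at 107, 134 and 477 CPM. The sum of 10 neutrophil markers was 878 CPM in S-high, 633 in G2/M-high, 3353 in low-cycle and 13193 in CD barcodes, with a highest single barcode of 26465, 1322, 393696 and 472910 CPM and none of the 10 markers at 0. The 10 monocyte markers summed to 183, 200, 422 and 368 CPM, again with none at 0. The 10 border macrophage markers summed to 284, 193, 272 and 1390 CPM, with 3 of them at 0 in S-high barcodes. Their highest single barcode was at 8253, 1969, 7574 and 15348 CPM, and their median over barcodes at 155, 148, 174 and 508 CPM. T cell and NK cell markers had 0 UMIs in S-high barcodes.

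Clusters led by border macrophage markers (36 barcodes) or by neutrophil markers together with the monocyte genes Plac8, Ifitm6 and Chil3 (27 barcodes) held 5 of 110 S-high and 58 of 443 remaining barcodes. The latter cluster also carried microglial genes, so leaving it out does not take out another cell type alone. With both clusters left out and the rule applied again, the ratio was 0.869 for Plac8, 0.898 for S100a9, 0.959 for Ngp, 1.02 for S100a8, 1.12 for Camp and 1.18 for Lcn2, and Ltf passed the fold the other way at 1.59. S100a8, Ngp and Plac8 were among the leading genes of a cluster left out, and H2-Aa and Cd74 among those of the other, so a shift in these follows in part from leaving them out. Ly6c2, at 0.620 beside 0.136 with all barcodes, H2-Aa, at 0.478, and Cd74, at 0.548, stayed under 1/1.5, and Apoe, a lipid carrier, moved to 0.624 beside 0.515 with all barcodes. Homeostatic genes had 0.845 and the replication genes outside the rule 1.82 without those clusters.

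**Figure D5:**
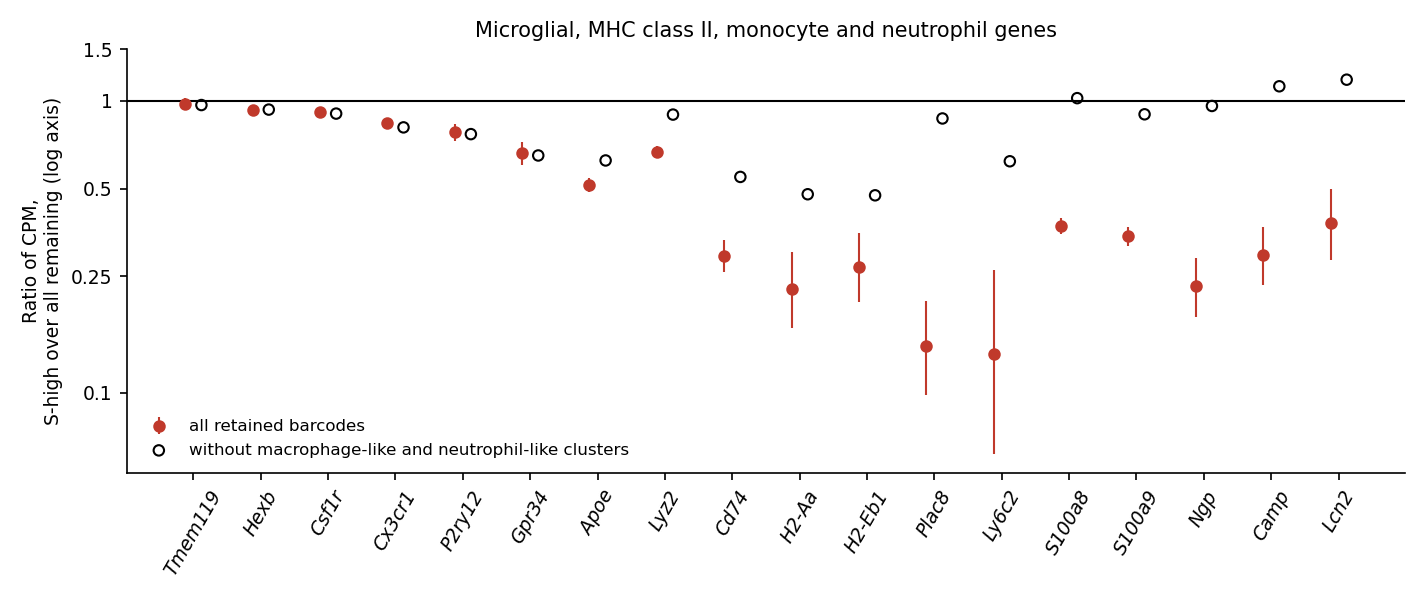
Ratios of CPM in S-high over all remaining barcodes for microglial, lipid, MHC class II, monocyte and neutrophil genes, on a log axis. Filled points with 95% counting intervals use all 553 barcodes, and open points leave out the clusters led by border macrophage or neutrophil markers, with the rule applied again. Neutrophil genes such as S100a8 sit at 0.373 with all barcodes and 1.02 without those clusters, while Tmem119 stays near 1.

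The ratios of several cytokine genes moved with 1 barcode. Of 14 NF-kB target and cytokine genes, 3 were 1.5-fold higher, beside 3.78% of all genes tested. Ccl12, a monocyte chemoattractant, stood at 1323 CPM in S-high against 867 CPM in the remaining barcodes, a ratio of 1.53 (1.46 to 1.59), and 1.46 without its highest barcode. Cxcl2 had 1.67, but 43.4% of its UMIs came from 1 barcode, without which the ratio was 0.972. Tnf had 1.55, and 1.24 without its highest barcode. Ccl3 and Ccl4, chemokines that attract other leukocytes, had 0.684 and 0.751 with 28.0% and 34.9% of their UMIs in 1 barcode, and 0.497 and 0.493 without it. Ccl2, a monocyte chemoattractant, had 0.888, and 0.826 without its highest barcode. The interferon target Cxcl10 had 2.30 with 32.1% of UMIs in 1 barcode, and 1.60 without it, while Irf7, an interferon-induced factor, had 0.542 (0.388 to 0.742). The summed interferon list stood at 2333 CPM in S-high against 2864 CPM in the remaining barcodes. Of its 14 measured genes, 1 was higher and 3 lower, beside 3.78% and 2.61% of all genes tested.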

How the data were processed

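Single cells were profiled in 2 libraries. The submitters' processing notes name Cell Ranger 2.1.0 and the build mm10; how cells were called and which annotation release served are not given in the sources used here. The authors deposited raw UMI counts per gene and barcode for each library, which were used here, and a pooled count matrix, used as an alternative. Counts were summed over the barcodes of each set and divided by their total (CPM). Genes at 20 CPM over all retained Repop D5 barcodes were tested by size: a ratio of 1.5 or its inverse, with rule genes left out. The method was tested on simulated counts. Clusters came from scanpy 1.11.5 (2000 variable genes, 30 components, 15 neighbours, Leiden at resolution 1) in Python 3.11.15, and doublets were called but not removed. A cluster took the name of the type with the most markers among its 10 leading genes, if these were at least 3. Thinned shares are medians of 20 draws. Named were the rule genes, the 15 highest and 15 lowest ratios, of each list the 2 highest, 2 lowest and 2 most abundant, and a set always named; other genes named were chosen after their values were seen, and some genes the rule names are not reported here. The members and lists were chosen with earlier results of these data known. Promoters are RefSeq's, found for 9 of 12 S rule genes, 87 of 102 replication genes and 48 of 60 G2/M genes. Printed stretches come from the genes with the highest ratios that hold an E2F match before both the RefSeq start and the GENCODE gene.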

Additional observations from a re-analysis of the deposited data

How the results depend on the processing

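No paired analysis was possible because the labels give no replicate numbers and each group is 1 library. All ratios set S-high over the remaining barcodes unless stated. For replication genes outside the rule (1.82), the ratio stayed above 1.5 throughout. It was 1.94 with cells of 1000 genes and under 5% mt-, 1.91 and 1.68 with 15% and 35% of barcodes chosen, 1.90 and 1.62 with 10% and 30% set aside for G2/M genes, 1.78 with a mean log score, 1.59 with barcodes chosen after thinning, 2.09 with equal weight per barcode, 2.18 against low-cycle barcodes and 1.94 without the 5% with the most UMIs. In the same order up to low-cycle barcodes, G2/M genes outside the rule (0.881) had 0.846, 0.936, 0.785, 1.10, 0.722, 0.843, 0.828, 0.986 and 1.61, and 0.847 in the pooled matrix. Homeostatic genes (0.848) had 0.823 and 0.912 with 15% and 35% chosen, 0.899 with 30% set aside, 0.879 with the log score, 0.872 without Pcna in the score, 0.881 after thinning, 0.856 with UMIs split between choice and measurement, 0.803 with equal weight, 0.833 with trimmed mean scaling and 0.815 against low-cycle barcodes. Genes 1.5-fold higher (191) numbered 126 with 35% chosen, 123 with 30% set aside, 86 after thinning, 306 with equal weight, 364 against low-cycle barcodes, 366 and 66 at minimums of 10 and 50 CPM, and 686 and 40 at a looser and a stricter fold. Genes lower (132) numbered 211 with the stricter cell filter, 291 and 82 with 15% and 35% chosen, 63 after thinning, 216 with split UMIs, 244 with equal weight, 199 with totals without mt- and ribosomal protein genes, 293 and 42 at the minimums, and 563 and 25 at the folds. Against G2/M-high barcodes, genes higher (115) numbered 209 with the stricter filter, 197 with 15% chosen, 220 and 69 with 10% and 30% set aside, 75 after thinning, 214 with split UMIs, 207 without mt- and ribosomal protein genes, 308 and 22 at the minimums, and 466 and 17 at the folds. Genes lower there (175) numbered 284 with the stricter filter, 340 with 15% chosen, 284 with split UMIs, 391 and 49 at the minimums, and 638 and 41 at the folds. The cause of these shifts was not tested. CD barcodes at the limit numbered 0, and 6 after thinning. The rule genes after splitting had 2.66, and 2.49 with the fourth of 5 seeds. Named genes past 1.5-fold numbered 88. They include the S rule genes and the G2/M rule genes Ccnb1, Cdc20 and Ube2c, which chose the barcodes. Others were named for the highest or lowest ratios in the same data, so the count that stayed is description only. Of the 88, 51, these rule genes among them, stayed past 1.5-fold in all 17 settings that kept the comparison. Those that crossed 1 were Cxcl2 (0.481 with 30% set aside, 0.719 with the log score, 0.968 with equal weight, 0.888 without the 5% with the most UMIs, 0.798 in the pooled matrix), Cxcl10 (0.785) and Hist1h2ap (0.962) with 30% set aside, and Tpx2 (1.32) and Ccnb1 (1.12) against low-cycle barcodes. Without the clusters led by border macrophage or neutrophil markers, Lcn2 (1.18), S100a8 (1.02), Camp (1.12), Ltf (1.59) and Wfdc21 (1.09) did so. Depth limits single genes: 3 UMIs come to 1.21 CPM over the S-high barcodes, and shares of barcodes with a UMI were higher without thinning for each of the genes given.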
